A study of Homo sapiens with 66 samples.

Results

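The comparison set the 3 libraries of NeuDet-D4 against the 3 libraries of NeuDet-D3, 6 of the 66 samples of the series, and covered every gene of the count table. The members were taken by label, as the columns named for those days. Both groups were wild-type H9 cells, an established human embryonic stem cell line, labelled as differentiating human spinal cord neural progenitor cells (hSCNPCs) under neural differentiation treatment. The cells had first been made into neuromesodermal progenitors (hNMPs) and then kept in neural determination (NeuDet) medium, which holds the dual-SMAD inhibitors SB431542 and Dorsomorphin, FGF2, FGF8, the GSK3 inhibitor CHIR99021 and Compound E, an inhibitor of gamma-secretase and so of Notch cleavage. NeuDet-D3 and NeuDet-D4 are the third and the fourth day in that medium, and every agent was shared by both groups. The line is 1 wild-type line, and no label states that a day's 3 libraries are separate cultures. The p-values therefore rest on a spread between libraries of the same group, which may be technical. That spread was estimated over all 48 libraries of the count table, not from these 6 alone. Libraries were made from RNA of whole cultures (total RNA per the labels, mRNA-seq per the study's methods), and in such bulk samples fewer cells of a type and less RNA per cell cannot be told apart.

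Neuromesodermal progenitors lie in the caudal end of the embryo and give rise to both spinal cord and paraxial mesoderm. HOX genes stand in 4 clusters and are switched on roughly in the order in which they lie, from paralog group 1 at the 3′ end to the highest groups at the 5′ end. Later groups mark more caudal levels of the trunk, and WNT, FGF and GDF11 signals and the CDX factors are known to advance that order.

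The step from NeuDet-D3 to NeuDet-D4 was a day of small changes with a few large ones. HOX genes of the higher paralog groups rose, with *HOXC10* at 7.33 times and *HOXA9* at 3.79 times their NeuDet-D3 mean. Those means were low, 0.273 CPM for *HOXC10* and 2.55 CPM for *HOXA9*. All 7 tested metallothionein genes fell, *MT2A* from a mean of 93.6 ± 12.5 to 17.9 ± 1.39 CPM (SD, n = 3; CPM is the count scaled to the TMM-adjusted size of its library). Of 17 pluripotency genes 5 fell, among them *ESRG*, *ZFP42* and *TDGF1*, and 1 rose. In edgeR's quasi-likelihood test with Benjamini-Hochberg adjustment, 2732 of 21597 tested genes were higher (12.6%) and 2538 were lower (11.8%) at an adjusted p under 0.05. The median absolute log2 fold change of the 5270 called genes was 0.35. Of them, 163 were higher and 283 lower by more than 2-fold, and with a mean of at least 5 CPM on the higher day these numbers were 25 and 29. When the test asked for a change beyond 2-fold, 4 genes were called higher (*HOXC10*, *HOXA9*, *HOXC-AS2* and *ABTB1*) and 11 lower, of which 6 were metallothionein genes.

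Depth differed between the days. The NeuDet-D3 libraries held 26932870 to 28217862 counts and the NeuDet-D4 libraries 36522035 to 37450844, with no overlap. NeuDet-D4 replicate 2 stood apart, since it had a count in 36838 genes against 30329 and 30124 in its replicates and 28496 to 31843 in the 17 other NeuDet libraries. At the lowest total of the 18 libraries, 24852173 counts, it would still show 34301 genes against 28389 to 29885 in the others. With at least 10 counts the gap was small, 19652 genes against 18756 and 18736. It had a count in 163 olfactory receptor genes, which neural progenitors are not known to use, against 26 to 52 in the others. In 1608 genes it had at least 3 counts where both replicates had none, against 137 and 103 such genes for replicates 1 and 3. Of these 1608 genes, 614 had a count in NeuDet-D3. They held 7059 counts in all and at most 20 each.

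**Figure D1:**
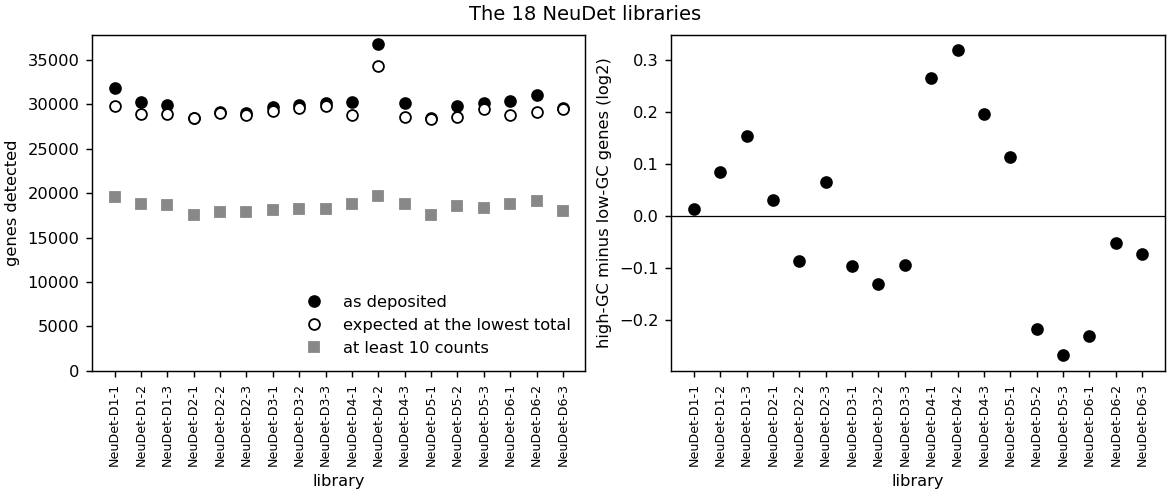
Left, genes with at least 1 count in each of the 18 NeuDet libraries (filled circles), the number expected at the lowest total (open circles) and genes with at least 10 counts (squares). Right, median deviation of the fifth of genes with the highest transcript GC minus that of the fifth with the lowest, in log2 units. NeuDet-D4-2 shows 36838 genes, above all others, and the 3 NeuDet-D4 libraries lie between 0.20 and 0.32 on the right.

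GC content moved with the comparison. Over 13031 genes with a mean above 2 on the log2 CPM scale, the log2 fold change followed the GC share of the longest transcript with a Spearman rho of 0.57, across genes, which are not independent replicates. In the decile of genes with the lowest GC, 1.53% were higher and 46.1% lower, and in the decile with the highest GC, 46.8% were higher and 3.53% lower. The contrast of high-GC over low-GC genes was -0.10, -0.13 and -0.09 in the NeuDet-D3 libraries and 0.27, 0.32 and 0.20 in the NeuDet-D4 libraries on the log2 scale, so the days did not overlap. The part of this trend in any single call was not tested. A fit that levelled the GC trend in each library called 1518 genes higher (7.03%) and 1894 lower (8.77%). It shared 1101 higher and 1291 lower genes with the fit on counts as deposited, called 1020 further genes, and turned no call around. The split of calls thus went from more higher than lower genes to more lower than higher genes, and both fits are given for each group of genes.

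**Figure D2:**
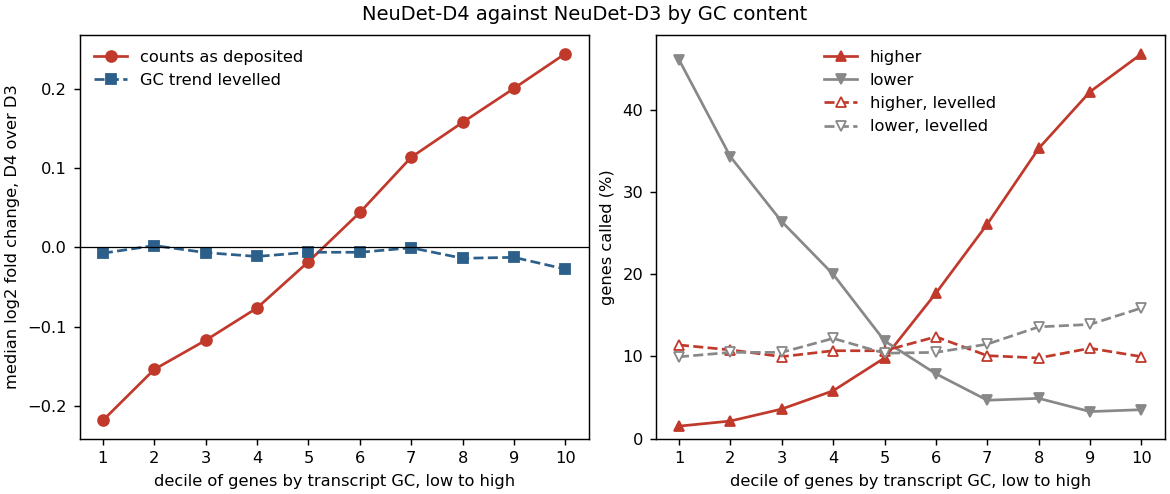
Genes above 2 on the log2 CPM scale in deciles of transcript GC, with the median log2 fold change of NeuDet-D4 over NeuDet-D3 (left) and the percentage of genes called higher or lower (right). With the counts as deposited the median runs from -0.22 in the lowest decile to 0.24 in the highest, and with the trend levelled it lies between -0.03 and 0.0021.

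Without NeuDet-D4 replicate 2, 2139 genes were higher (9.9%) and 1808 lower (8.37%). Leaving out each of the other 5 libraries in turn gave 2092 to 2383 higher and 1936 to 2125 lower genes, so the number of higher genes without replicate 2 lay within that range and the number of lower genes under it. Of the calls made with all libraries, 2082 higher and 1714 lower ones remained, 650 and 824 were lost, 57 and 94 were gained, and none turned around. Only 10 higher calls had replicate 2 above its replicates and both of those at or below the highest NeuDet-D3 library. None of these 10 was called without replicate 2. Among the genes under 0.25 CPM on both days, 31 were higher with all libraries, and 5 of those 31 were still higher without it. The affected genes included regulators of other brain regions and cell types, chosen here after their values were seen. *RAX*, an eye field factor, had 0 counts in all NeuDet-D3 libraries and 0, 13 and 1 counts in the NeuDet-D4 libraries (adjusted p = 0.0485, and 0.549 without replicate 2). *OTX1*, a forebrain and midbrain factor, had 1, 0 and 0 counts against 0, 19 and 2 (adjusted p = 0.0142, and 0.695 without it). *SLC6A5*, a glycine transporter of inhibitory neurons, had 0 counts in 5 libraries and 11 in replicate 2 (adjusted p = 0.0288, and 1 without it). *EBF2*, with 1, 0 and 0 counts against 3, 10 and 3, lost its call as well (adjusted p = 0.0495, and 0.252 without replicate 2). All 3 of its NeuDet-D4 libraries held more counts than any NeuDet-D3 library. *HOPX* had 1, 0 and 0 counts against 8, 9 and 3 and kept its call without replicate 2 (adjusted p = 0.0366). Of the 2383 higher genes with a mean of at least 5 CPM, 1895 remained without the library.

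Among HOX genes of paralog groups 6 to 13, 13 of 15 tested members rose and none fell, against 12.6% of all genes higher, with a median log2 fold change of 1.10 beside -0.01 over all tested genes. With the GC trend levelled 11 rose, and without NeuDet-D4 replicate 2 12 rose. The other 9 members of the list, *HOXA11*, *HOXA13*, *HOXB13*, *HOXC11*, *HOXC12*, *HOXD10*, *HOXD11*, *HOXD12* and *HOXD13*, did not pass the filter on low counts. *HOXC10*, a lumbar-level gene, went from 0.247, 0.284 and 0.288 CPM in the NeuDet-D3 libraries to 2.33, 1.78 and 1.90 CPM in the NeuDet-D4 libraries. All 3 NeuDet-D4 libraries lay above all NeuDet-D3 libraries, and the log2 fold change was 2.85 ± 0.28 (SE, edgeR adjusted p = 9.25e-10). *HOXA9* had 3.04, 2.55 and 2.05 CPM in the NeuDet-D3 libraries and 9.48, 10.1 and 9.37 CPM in the NeuDet-D4 libraries, again without overlap, and the log2 fold change was 1.92 ± 0.15 (SE, edgeR adjusted p = 4.02e-13). *HOXC9*, a thoracic-level gene, had 12.9, 12.8 and 12.1 CPM in the NeuDet-D3 libraries and 30.2, 32.5 and 30.4 CPM in the NeuDet-D4 libraries, and the log2 fold change was 1.30 ± 0.10 (SE, edgeR adjusted p = 1.41e-13). *HOXA7* had 17.9, 14.9 and 14.6 CPM in the NeuDet-D3 libraries and 39.4, 39.2 and 41.2 CPM in the NeuDet-D4 libraries, and the log2 fold change was 1.34 ± 0.10 (SE, edgeR adjusted p = 2.52e-13). The 3 NeuDet-D4 libraries of these genes lay close together, with SDs of 0.416, 1.24 and 1.13 CPM for *HOXA9*, *HOXC9* and *HOXA7*. *HOXC6* had means of 81.5 ± 12.7 and 177 ± 3.83 CPM, and *HOXC8*, which rose as well, means of 85.2 ± 10.2 and 138 ± 1.96 CPM. *HOXD8*, *HOXD9* and *HOXA10* rose by 1.10, 1.52 and 1.16 on the log2 scale. *HOXB9* rose by only 0.36 (adjusted p = 0.0315) and lost its call with the GC trend levelled (adjusted p = 0.219). *HOXA6* lost its call there too (adjusted p = 0.0949). *HOXB8* had a log2 fold change of 0.27 and *HOXC13* of -0.69, with adjusted p of 0.0501 and 0.356. The summed HOX level was 2242 to 2656 CPM in the NeuDet-D3 libraries and 3141 to 3213 CPM in the NeuDet-D4 libraries. Of that sum, paralog group 9 held 34.6% to 35.3% in the NeuDet-D3 libraries and 34.5% to 35.1% in the NeuDet-D4 libraries. Groups 1 to 5 held 45.6% to 46.2% and 42.3% to 42.6%, and the other groups 19.1% to 19.2% and 22.25% to 23.2%.

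**Figure D3:**
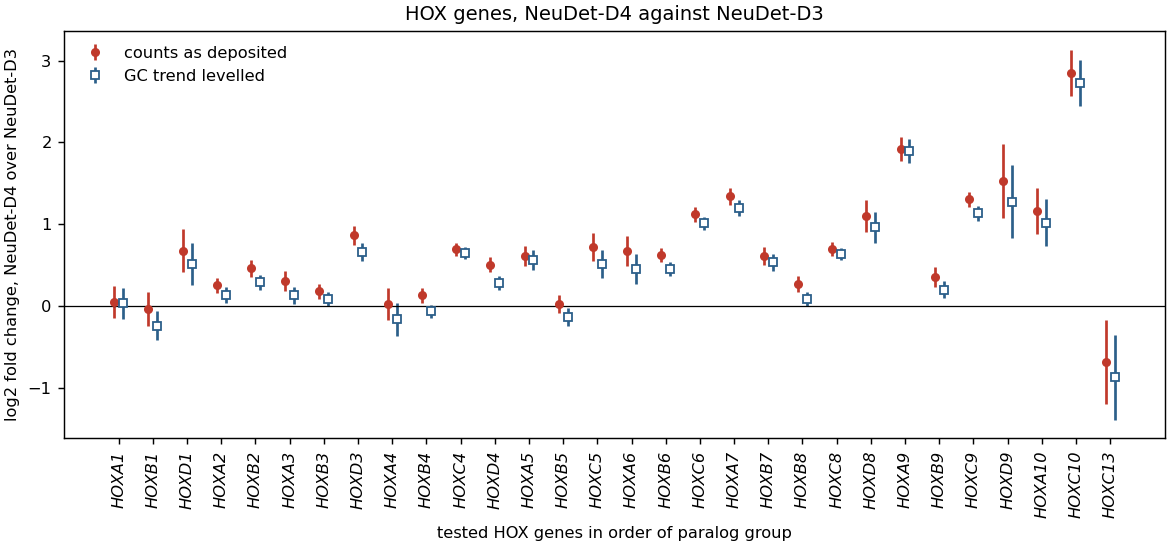
Log2 fold change of NeuDet-D4 over NeuDet-D3 with its SE for the 30 tested HOX genes, ordered by paralog group, with counts as deposited (filled circles) and with the GC trend levelled (open squares). *HOXC10* stands highest at 2.85, and among the groups 1 to 5 the highest value is 0.86, for *HOXD3*.

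Among HOX genes of paralog groups 1 to 5, 6 of 15 rose and none fell, in each of the 3 fits, with a median of 0.30. The share of all genes higher was 12.6%, and 7.03% with the GC trend levelled and 9.9% without NeuDet-D4 replicate 2. The 6 were *HOXD3* (0.86), *HOXC5* (0.72), *HOXC4* (0.69), *HOXA5* (0.61), *HOXD4* (0.50) and *HOXB2* (0.46 on the log2 scale). *HOXB3*, *HOXB4* and *HOXA3* had adjusted p of 0.142, 0.311 and 0.0598. Whether the change differed between the paralog groups was not tested. Transcripts of neighbouring HOX genes share exons, and 62.5% of the annotated exon length of *HOXA7* and 27% of that of *HOXA9* overlapped another gene, so counts between neighbours are uncertain. The lncRNA *HOXC-AS1* rose by 1.17, *HOXA10-AS* by 2.00 and *LINC02381*, beside the HOXC cluster, by 1.05 on the log2 scale.

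The 250 bases before the annotated start of *HOXA9* are shown because this gene had the largest change among HOX genes with a promoter sequence available (RefSeq, GRCh38.p14, chr7:27165538-27165787, minus strand, written 5′ to 3′). No such sequence was available for *HOXC10*, which changed more. Capitals mark matches to TTTATG or TTTATT, the form bound by caudal factors such as CDX2, on either strand.
HOXA9: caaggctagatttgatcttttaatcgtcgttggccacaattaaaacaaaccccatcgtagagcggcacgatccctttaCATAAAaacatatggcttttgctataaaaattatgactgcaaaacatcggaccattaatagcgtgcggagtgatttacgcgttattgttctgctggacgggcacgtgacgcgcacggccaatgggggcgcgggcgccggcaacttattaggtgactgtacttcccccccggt
Of the 14 tested HOX genes with a promoter in the table, 7 held a match, *HOXC4* and *HOXC5* through the same stretch, against 23.2% of all 27305 promoters. *HOXA6*, *HOXA7*, *HOXA10* and *HOXD3*, which rose as well, held none. *HOXA3*, which held the most with 3, and *HOXA2*, which held 1, were not called. Whether a match went with the change was not tested.

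The metallothioneins, small cysteine-rich proteins that bind zinc and copper, fell together. This list was chosen after its values were seen. All 7 tested genes were lower with the counts as deposited and with the GC trend levelled, and 6 of 7 without NeuDet-D4 replicate 2, where *MT1X* had an adjusted p of 0.0501. Their median log2 fold change was -3.37, and their summed level was 103 to 135 CPM in the NeuDet-D3 libraries and 19.97 to 23.4 CPM in the NeuDet-D4 libraries. *MT2A* had 86.2, 86.6 and 108 CPM in the NeuDet-D3 libraries and 17.3, 19.5 and 16.97 CPM in the NeuDet-D4 libraries, and the log2 fold change was -2.38 ± 0.27 (SE, edgeR adjusted p = 8.02e-08). *MT1F* had 5.93, 8.73 and 7.66 CPM in the NeuDet-D3 libraries and 1.01, 1.28 and 1.25 CPM in the NeuDet-D4 libraries, and the log2 fold change was -2.65 ± 0.29 (SE, edgeR adjusted p = 8.23e-09). *MT1G* had 1.73, 2.34 and 4.32 CPM in the NeuDet-D3 libraries and 0.164, 0.104 and 0.0812 CPM in the NeuDet-D4 libraries, and the log2 fold change was -4.52 ± 0.50 (SE, edgeR adjusted p = 4.06e-08). The NeuDet-D3 libraries of *MT1G* spread more than those of *MT2A*, and in none of the 3 genes did the days overlap. *MT1H*, *MT1M* and *MT1E* fell by 4.62, 3.69 and 3.37 on the log2 scale. The family has near-identical members in 1 cluster on chromosome 16, so the split of reads between them is uncertain. NeuDet-D3 was the high day of the series around it, since *MT2A* had a mean of 26.1 CPM on NeuDet-D2 and 13.5 CPM on NeuDet-D5. Of 11 tested zinc transport, heat shock and oxidative response genes, also listed after the metallothioneins had been seen, 2 rose and 3 fell, and 2 and 2 with the GC trend levelled. The shares for both lists to be read against were 12.6% higher and 11.8% lower of all genes, and 7.03% and 8.77% when levelled. *SLC30A1*, a zinc exporter that shares a metal-responsive factor with the metallothioneins, fell by 0.48 and *HMOX1*, a heme oxygenase, by 0.55 on the log2 scale. The heat shock genes *DNAJB1* (0.82) and *HSPH1* (0.30) rose, and *MTF1*, the metal-responsive factor itself, had a log2 fold change of 0.052 (adjusted p = 0.683).

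The 250 bases before the start of the tested metallothionein genes in the promoter table are shown because these genes fell together (RefSeq, GRCh38.p14, plus strand, 5′ to 3′, chr16:56608334-56608583 for *MT2A*, chr16:56682220-56682469 for *MT1X* and chr16:56669564-56669813 for *MT1H*). Capitals mark the metal response element cores TGCACNC and TGCGCNC on either strand, where N is any base.
MT2A: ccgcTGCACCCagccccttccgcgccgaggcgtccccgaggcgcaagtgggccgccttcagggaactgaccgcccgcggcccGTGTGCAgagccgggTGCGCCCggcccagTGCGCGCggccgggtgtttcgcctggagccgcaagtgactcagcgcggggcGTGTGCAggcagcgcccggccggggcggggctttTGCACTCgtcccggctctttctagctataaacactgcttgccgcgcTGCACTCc
MT1X: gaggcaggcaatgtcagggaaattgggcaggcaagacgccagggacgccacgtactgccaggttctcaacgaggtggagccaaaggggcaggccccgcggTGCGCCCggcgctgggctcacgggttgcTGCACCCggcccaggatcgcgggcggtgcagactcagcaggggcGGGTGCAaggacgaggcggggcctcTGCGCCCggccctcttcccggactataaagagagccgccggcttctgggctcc
MT1H: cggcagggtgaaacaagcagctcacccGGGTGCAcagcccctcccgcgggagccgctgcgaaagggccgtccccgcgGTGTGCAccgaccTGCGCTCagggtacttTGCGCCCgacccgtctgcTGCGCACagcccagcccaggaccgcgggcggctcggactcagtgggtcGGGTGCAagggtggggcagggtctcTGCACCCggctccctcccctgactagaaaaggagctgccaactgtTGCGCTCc
*MT2A* held 7 matches, *MT1X* 4 and *MT1H* 8, while 24.7% of all 27305 promoters of this length held any and 1.56% held 3 or more. Matches may overlap one another.

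Among protein-coding genes with at least 5 CPM and no overlap between the days, the largest rise was that of *MGLL*, monoacylglycerol lipase, with 3.53, 2.91 and 2.59 CPM in the NeuDet-D3 libraries and 12.99, 12.8 and 12.02 CPM in the NeuDet-D4 libraries. Its log2 fold change was 2.07 ± 0.29 (SE, edgeR adjusted p = 1.42e-06). Its neighbour *ABTB1*, on the opposite strand, had 4.66, 4.72 and 4.78 CPM in the NeuDet-D3 libraries and 16.4, 17.1 and 15.2 CPM in the NeuDet-D4 libraries, and the log2 fold change was 1.78 ± 0.16 (SE, edgeR adjusted p = 2.78e-12). The pair lies at chr3:127689062-128052190 and chr3:127672935-127680926 (hg38), and their annotated exons did not overlap other genes. Both were highest on this day of the NeuDet series, with means of 5.12 CPM for *MGLL* and 5.65 CPM for *ABTB1* on NeuDet-D5. *ZBTB16*, a zinc finger repressor of stem and progenitor cells, rose by 1.34 on the log2 scale and *SLC18A1*, a vesicular monoamine transporter, by 1.30. *KANK4*, a cytoskeletal adaptor, had 39.2, 36.5 and 45.6 CPM in the NeuDet-D3 libraries and 89.6, 82.3 and 85.4 CPM in the NeuDet-D4 libraries, and *PLD5* rose by 1.17. *CARS1*, a cysteinyl-tRNA synthetase, had 4.42, 8.73 and 8.09 CPM in the NeuDet-D3 libraries and 18.99, 12.98 and 16.3 CPM in the NeuDet-D4 libraries. Its change was 1.19 ± 0.43 (SE, edgeR adjusted p = 0.0410), and with the GC trend levelled the adjusted p was 0.0865.

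**Figure D4:**
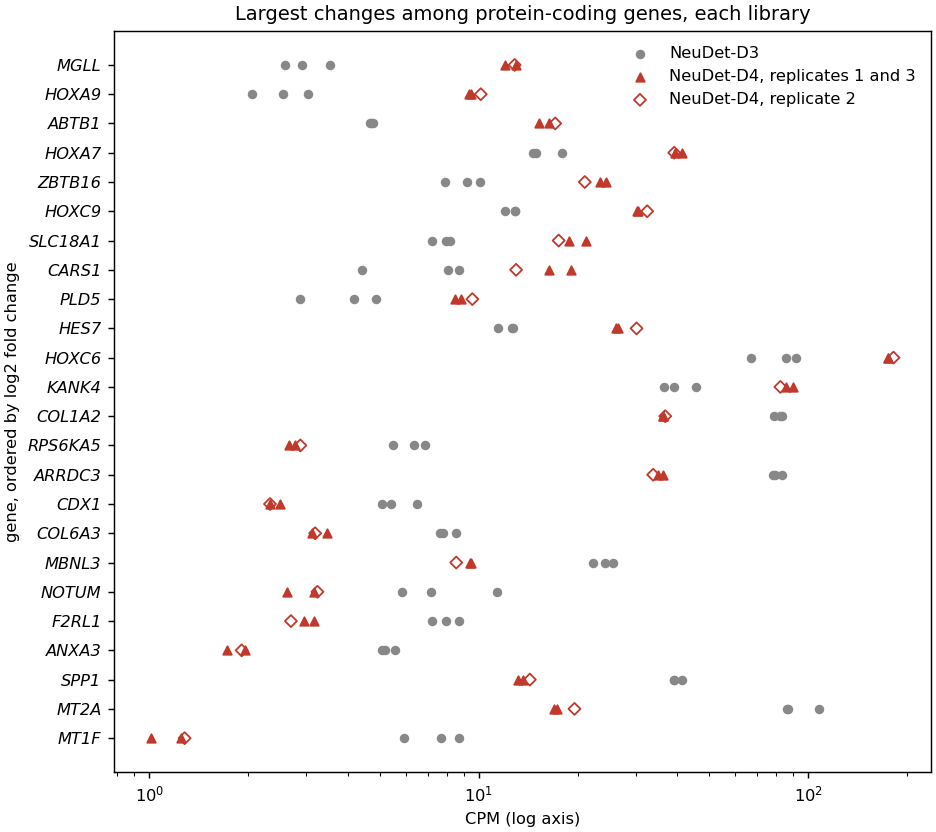
CPM on a log axis in each library for the 24 protein-coding genes with the largest changes, ordered by log2 fold change, for NeuDet-D3 (grey) and NeuDet-D4 (red, replicate 2 as open diamonds). The days do not overlap in any of them, which the choice of genes required, and replicate 2 lies beside its replicates.

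Among the genes that fell most were several that had been falling for days. *SPP1*, osteopontin, had 39.2, 39.1 and 41.2 CPM in the NeuDet-D3 libraries and 13.2, 14.3 and 13.6 CPM in the NeuDet-D4 libraries, and the log2 fold change was -1.54 ± 0.15 (SE, edgeR adjusted p = 1.69e-09), after a mean of 347 CPM on NeuDet-D1. *F2RL1*, a protease-activated receptor, had 7.95, 7.24 and 8.74 CPM in the NeuDet-D3 libraries and 3.15, 2.69 and 2.95 CPM in the NeuDet-D4 libraries, and *ANXA3*, an annexin, 5.19, 5.57 and 5.07 CPM in the NeuDet-D3 libraries and 1.73, 1.91 and 1.95 CPM in the NeuDet-D4 libraries. *MBNL3*, an RNA-binding regulator of splicing, fell by 1.39 on the log2 scale. *ARRDC3*, an arrestin family member, had 79.4, 83.3 and 78.2 CPM in the NeuDet-D3 libraries and 35.02, 33.8 and 36.4 CPM in the NeuDet-D4 libraries and stood at 65.4 CPM on NeuDet-D5, and 80.3 ± 2.66 and 35.1 ± 1.26 CPM were its means on the 2 days compared. *NOTUM*, which inactivates WNT proteins, had 7.17, 5.85 and 11.4 CPM in the NeuDet-D3 libraries and 3.15, 3.24 and 2.62 CPM in the NeuDet-D4 libraries. In NeuDet-D3 1 library lay above the other 2, and the log2 fold change was -1.43 ± 0.16 (SE, edgeR adjusted p = 1.97e-09). *NOTUM* had not been falling before, with a mean of 7.33 CPM on NeuDet-D1, and it stood at 10.7 CPM on NeuDet-D5 and 23.0 CPM on NeuDet-D6.

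Of the 17 pluripotency genes, 1 rose and 5 fell, and with the GC trend levelled 2 rose and 4 fell, where 12.6% and 11.8% of all tested genes, and 7.03% and 8.77% when levelled, were called. *ESRG*, a lncRNA of embryonic stem cells, had 3.32, 2.73 and 3.27 CPM in the NeuDet-D3 libraries and 0.603, 0.418 and 0.623 CPM in the NeuDet-D4 libraries, and the log2 fold change was -2.50 ± 0.19 (SE, edgeR adjusted p = 1.67e-13). *ZFP42* had 3.43, 3.19 and 2.73 CPM in the NeuDet-D3 libraries and 0.959, 0.888 and 1.16 CPM in the NeuDet-D4 libraries and fell by 1.63, and *TDGF1*, a NODAL co-receptor, fell by 1.49 on the log2 scale. In all, 58 called genes with a symbol had every NeuDet-D3 library above 1 CPM and every NeuDet-D4 library below it. *ESRG* and *TDGF1* were among them, as were *C13orf42*, *LINC01405*, *IGFBP7*, *XACT* and the pseudogene *POU5F1P3*, whose count can hold reads of related copies. *POU5F1*, the core pluripotency factor, was already at 0.416 ± 0.173 CPM and had 0.257 ± 0.164 CPM on NeuDet-D4 (edgeR adjusted p = 0.268). *SALL4* rose by 0.26, *DPPA4* fell by 0.27, and *LIN28A*, at 1244 ± 35.9 and 1271 ± 45.5 CPM, had a log2 fold change of 0.031 (adjusted p = 0.705). *LIN28B* fell by 0.25 but was not called with the GC trend levelled (adjusted p = 0.431).

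Of 21 epithelial and cadherin genes none rose and 6 fell, against 11.8% of all genes, and with the GC trend levelled 1 rose and 7 fell. *CDH1*, E-cadherin, had 3.00, 4.19 and 3.17 CPM in the NeuDet-D3 libraries and 1.34, 1.49 and 1.06 CPM in the NeuDet-D4 libraries, and the log2 fold change was -1.41 ± 0.22 (SE, edgeR adjusted p = 1.05e-05). *EPCAM*, an epithelial adhesion protein, had 12.01, 12.4 and 15.2 CPM in the NeuDet-D3 libraries and 5.87, 6.06 and 6.06 CPM in the NeuDet-D4 libraries, and *CLDN6*, a claudin of embryonic epithelia, 51.7, 49.8 and 49.9 CPM in the NeuDet-D3 libraries and 25.7, 26.9 and 25.96 CPM in the NeuDet-D4 libraries. They fell by 1.14 and 0.95 on the log2 scale. *CDH2*, N-cadherin, had 322 ± 16.3 and 289 ± 13.7 CPM (edgeR adjusted p = 0.160).

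Of 16 caudal and neuromesodermal progenitor genes, 6 rose and 1 fell, and 4 and 1 with the GC trend levelled. Over all tested genes 12.6% were higher and 11.8% lower, and 7.03% and 8.77% when levelled. *SP8* rose from 90.1 ± 12.01 to 128 ± 3.33 CPM, *GREB1* from 157 ± 14.1 to 212 ± 10.3 CPM and *GDF11*, a ligand that promotes caudal HOX genes, from 73.2 ± 7.70 to 93.8 ± 2.85 CPM. *CDX1* had 5.40, 5.07 and 6.51 CPM in the NeuDet-D3 libraries and 2.49, 2.33 and 2.33 CPM in the NeuDet-D4 libraries and fell by 1.25 on the log2 scale. *CDX2* had 567, 505 and 498 CPM in the NeuDet-D3 libraries and 703, 705 and 674 CPM in the NeuDet-D4 libraries, higher in every NeuDet-D4 library, but was not called (adjusted p = 0.172). *TBXT*, the mesodermal factor Brachyury, rose by 0.62 on the log2 scale with the counts as deposited (adjusted p = 0.0299) and was called neither with the GC trend levelled (adjusted p = 0.172) nor without NeuDet-D4 replicate 2 (adjusted p = 0.129). *NKX1-2* had 221 ± 7.76 and 257 ± 1.25 CPM (adjusted p = 0.134). *CYP26A1*, which degrades retinoic acid, rose by 1.09 from a low level, with adjusted p of 0.0101, and 0.0505 without replicate 2. Of 12 presomitic and paraxial mesoderm genes 3 rose and none fell, and 2 and none with the GC trend levelled. *HES7*, the oscillator of the segmentation clock, had 12.7, 11.4 and 12.6 CPM in the NeuDet-D3 libraries and 26.1, 30.1 and 26.4 CPM in the NeuDet-D4 libraries, and the log2 fold change was 1.17 ± 0.14 (SE, edgeR adjusted p = 7.02e-09). *DLL3*, a Notch ligand of the same tissue, rose by 0.94 on the log2 scale, while *TCF15*, *FOXC1* and *MEOX1*, which mark paraxial mesoderm itself, had adjusted p of 0.359, 0.406 and 0.139.

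Signalling genes moved in both directions. The shares over all tested genes to read these counts against were 12.6% higher and 11.8% lower with the counts as deposited, and 7.03% and 8.77% with the trend levelled. Of 14 WNT ligands 1 rose and 1 fell in both fits, and *WNT5A* had 206, 204 and 157 CPM in the NeuDet-D3 libraries and 314, 288 and 325 CPM in the NeuDet-D4 libraries and rose by 0.71 on the log2 scale. Of 24 WNT targets and feedback genes 3 rose and 4 fell, and 1 and 5 with the GC trend levelled, with *ASCL2* higher by 1.05 on the log2 scale. *DKK1*, a WNT antagonist, fell from 1.60 ± 0.512 to 0.605 ± 0.335 CPM, and *NOTUM* of the same list fell as given above. Of 26 FGF and ERK feedback genes 6 rose and 3 fell, and 4 and 4 with the GC trend levelled. *SPRY4* (0.52), *SPRY1* (0.42), *DUSP4* (0.57) and *SPRED3* (0.59), all inhibitors of the pathway that it induces, rose, while *DUSP6* had a log2 fold change of -0.021 (adjusted p = 0.934). *SPRED1*, an inhibitor too, fell by 0.42 and *FGFR3*, a receptor, by 0.45 on the log2 scale, both also called with the trend levelled. Of 23 Notch pathway genes 8 rose and 2 fell, and 4 and 3 with the GC trend levelled. The direct Notch target *HES1* fell by 0.43, in both fits, and *HES6*, which opposes it, rose by 0.65 on the log2 scale. Of 19 retinoic acid genes 5 rose and none fell, but 4 rose and 3 fell with the GC trend levelled, and *NR2F1*, a nuclear receptor, had 9.79, 12.7 and 6.69 CPM in the NeuDet-D3 libraries and 19.7, 18.2 and 20.3 CPM in the NeuDet-D4 libraries. Of 13 hedgehog pathway genes 6 rose and none fell, and 3 rose with the GC trend levelled. *PTCH1*, receptor and target of the pathway, went from 269 ± 35.8 to 388 ± 26.3 CPM and rose in both fits, as did *HHIP*. Of 25 BMP and TGF-beta pathway genes 9 rose and 4 fell, and 7 and 5 with the GC trend levelled, with the BMP antagonist *NOG* higher by 0.79, *ID4* by 0.60, and *ID1* by 0.48. The activin antagonist *FST* fell by 0.60 on the log2 scale.

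Neural progenitor genes moved both ways. Of 20 pan-neural genes 4 rose and 6 fell, and 2 and 6 with the GC trend levelled, beside 12.6% higher and 11.8% lower of all genes, and 7.03% and 8.77% when levelled. *SOX2* had 236, 219.5 and 193 CPM in the NeuDet-D3 libraries and 217, 220.1 and 206 CPM in the NeuDet-D4 libraries, with overlapping days and a log2 fold change of -0.012 (edgeR adjusted p = 0.930). *NES*, nestin, had 508 ± 18.4 and 490.3 ± 26.04 CPM (adjusted p = 0.667), and with the GC trend levelled its log2 fold change was -0.27 (adjusted p = 0.000470). *SOX1* had 7.03, 9.61 and 6.91 CPM in the NeuDet-D3 libraries and 5.29, 5.43 and 5.39 CPM in the NeuDet-D4 libraries and fell by 0.55, *SOX21* by 0.94 and *VIM*, vimentin, by 0.50 on the log2 scale. *PAX6*, a defining marker of the labelled progenitors, was near 0, at 0.0712 ± 0.0356 and 0.150 ± 0.119 CPM, and *OLIG2* and *NKX2-2* stood at or under 0.0894 ± 0.0682 CPM on both days. Of 11 dorsal neural tube genes 4 rose and 2 fell, and 3 and 2 with the GC trend levelled, with *MSX2* higher by 0.48, and *GDF7* by 0.94. Of 16 ventral genes 2 rose and 1 fell, and 1 and 2 with the GC trend levelled, and 12 of the 16 had a mean under 1 CPM on both days. *NKX6-1* had 15.3 ± 2.23 and 16.5 ± 0.917 CPM (adjusted p = 0.582). Of 27 neurogenesis and young neuron genes 5 rose and 1 fell, and 2 and 2 with the GC trend levelled. *NEUROG2*, a proneural factor, rose from 1.01 ± 0.198 to 2.04 ± 0.330 CPM, and *DCX*, doublecortin of migrating neurons, fell from 3.99 ± 1.22 to 1.63 ± 0.247 CPM. Of 15 forebrain and midbrain genes 5 rose and none fell, and 3 and none with the GC trend levelled. Of the 5, *RAX* and *OTX1* rested on NeuDet-D4 replicate 2, while *PAX8* (1.42), *EN2* (1.01) and *GBX2* (0.53) were called without it, and *GBX2* lost its call with the trend levelled (adjusted p = 0.0966).

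Markers of other cell types were low or mixed, and their counts stand against the same 12.6% and 11.8% of all genes, or 7.03% and 8.77% when levelled. Of 13 neural crest genes 2 rose and 3 fell, and 1 and 3 with the GC trend levelled. *NGFR*, a neurotrophin receptor and one of those that fell, had 19.6, 20.9 and 19.2 CPM in the NeuDet-D3 libraries and 9.10, 10.1 and 9.99 CPM in the NeuDet-D4 libraries. Of 16 mesenchymal and muscle genes 3 rose and 4 fell, and 2 and 7 with the GC trend levelled. The collagen genes of this list diverged, with *COL1A2* at 78.95, 83.3 and 81.8 CPM in the NeuDet-D3 libraries and 36.2, 36.8 and 36.3 CPM in the NeuDet-D4 libraries and *COL3A1* higher by 0.79, while *COL1A2* fell by 1.16 on the log2 scale. Endoderm and intestinal genes summed to 3.09 to 4.32 CPM in NeuDet-D3 and 2.88 to 4.10 CPM in NeuDet-D4, 11 of 17 were tested, none rose and 2 fell in both fits. *SOX17*, their defining factor, had 0 counts in 5 of the 6 libraries and 17 in NeuDet-D4 replicate 2. Of 11 tested surface ectoderm and placode genes none rose and 1 fell in both fits, with sums of 14.7 to 17.9 and 14.9 to 16.9 CPM. Of 9 tested endothelial and blood genes none rose and 2 fell, and none and 1 with the GC trend levelled, with sums of 41.2 to 44.2 and 35.7 to 39.7 CPM.

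Genes of metabolism and stress showed 2 groups with calls in 1 direction with the counts as deposited. The shares of all genes with the GC trend levelled were 7.03% higher and 8.77% lower. Of 23 cholesterol synthesis genes 11 rose and none fell, against 12.6% of all genes higher, with a median of 0.25, and 9 rose and none fell with the GC trend levelled. *DHCR7*, the last enzyme of the pathway, had 115, 102 and 88.9 CPM in the NeuDet-D3 libraries and 154, 148 and 152 CPM in the NeuDet-D4 libraries, and *MVD*, *LSS* and *CYP51A1* rose by 0.54, 0.62 and 0.52 on the log2 scale. *HMGCS1*, at the head of the pathway, had an adjusted p of 0.595 with the counts as deposited and 0.0227 with the GC trend levelled. Of 20 genes of the unfolded protein and integrated stress responses none rose and 11 fell, against 11.8% of all genes lower, and 1 rose and 12 fell with the GC trend levelled. *CHAC1*, which degrades glutathione, had 22.1, 25.6 and 27.9 CPM in the NeuDet-D3 libraries and 13.9, 12.6 and 12.3 CPM in the NeuDet-D4 libraries, and the log2 fold change was -0.97 ± 0.11 (SE, edgeR adjusted p = 5.9e-09). *SLC7A11*, a cystine importer, fell from 63.7 ± 6.63 to 37.8 ± 1.89 CPM and *DDIT4*, an inhibitor of mTORC1, from 77.1 ± 9.15 to 51.4 ± 2.27 CPM. *ATF4*, the factor that drives several of these genes, had a log2 fold change of -0.0034 (adjusted p = 0.977), and with the GC trend levelled it was -0.18 (adjusted p = 0.00488). Of 26 glycolysis and hypoxia genes 5 rose and 4 fell, and 3 and 5 with the GC trend levelled, and of these *ADM*, a hypoxia-induced peptide, fell by 1.14 on the log2 scale.

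Counts of cell cycle, histone and mitochondrial genes stand beside 12.6% higher and 11.8% lower of all genes, or 7.03% and 8.77% when levelled. The DNA replication and mitosis lists had median log2 fold changes of -0.008 and 0.025. Of 26 DNA replication genes 2 rose and 4 fell, and none and 1 with the GC trend levelled, and of 25 mitosis genes 2 rose and 3 fell, and 1 and 1. *MKI67*, a proliferation marker, had 581, 519.5 and 427 CPM in the NeuDet-D3 libraries and 561, 467 and 527 CPM in the NeuDet-D4 libraries, with wide and overlapping days (edgeR adjusted p = 0.941). Of 24 replication-dependent histone genes none rose and 4 fell, and none and 6 with the GC trend levelled. These transcripts lack poly(A) tails for the most part, and 10 of the 24 had a mean under 1 CPM on both days. Of 13 mitochondrially encoded genes none rose and 6 fell, with a median of -0.20, 4 were lower with the GC trend levelled, and 1 was lower without NeuDet-D4 replicate 2.

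Several further groups held calls in both directions, where over all genes 12.6% were higher and 11.8% lower, and 7.03% and 8.77% when levelled. Of 30 axon guidance genes 7 rose and 3 fell, and 7 and 5 with the GC trend levelled, with *UNC5C*, a netrin receptor, higher by 0.81 and *NRP2* by 0.39 in both fits. Of 26 extracellular matrix genes 4 rose and 2 fell, and 2 and 7 with the GC trend levelled. *NID1*, a basement membrane protein, rose from 193 ± 21.5 to 269 ± 15.7 CPM and its relative *NID2* fell from 17.8 ± 1.70 to 10.9 ± 0.211 CPM. Of 20 p53 target genes 3 rose and 5 fell, and 1 and 5 with the GC trend levelled, and *MDM2*, which degrades p53, fell by 0.52 on the log2 scale. Of 15 immediate early genes 5 rose and 1 fell, and 2 and 1 with the GC trend levelled, where *JUNB*, *JUND* and *IER2* lost their calls. *EGR1*, a growth factor-induced factor that rose in both fits, had 7.59, 7.59 and 4.82 CPM in the NeuDet-D3 libraries and 11.7, 12.2 and 12.3 CPM in the NeuDet-D4 libraries. Of 14 glial genes 5 rose and 3 fell, and 4 and 2 with the GC trend levelled, with *SOX8* higher by 0.61 and *CSPG4* by 0.82. *NFIB* fell by 1.16 and *SOX9* by 0.38 on the log2 scale, in both fits, and *FABP7* fell with the counts as deposited. Of 21 polycomb and DNA methylation genes 3 rose and 5 fell, and 1 and 5 with the GC trend levelled, and *BMI1* fell by 0.53, in both fits.

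In the other direction 26 called genes with a symbol crossed 1 CPM upward, with all NeuDet-D3 libraries below it and all NeuDet-D4 libraries above. Beside *HOXC10* and *HOXA10-AS* they included *DUOX2*, an oxidase, which had 0.530, 0.816 and 0.468 CPM in the NeuDet-D3 libraries and 1.64, 2.25 and 1.43 CPM in the NeuDet-D4 libraries and was back at 0.296 CPM on NeuDet-D5. *DKK2*, a WNT modulator, had 0.565, 0.851 and 0.755 CPM in the NeuDet-D3 libraries and 1.73, 1.96 and 1.90 CPM in the NeuDet-D4 libraries, and *AMER2*, a negative regulator of WNT signalling, 0.954, 0.461 and 0.468 CPM in the NeuDet-D3 libraries and 1.43, 1.70 and 1.87 CPM in the NeuDet-D4 libraries. *FAM156A* had 0.707, 0.851 and 0.971 CPM in the NeuDet-D3 libraries and 4.69, 1.51 and 1.62 CPM in the NeuDet-D4 libraries, so that 1 library stood far above the others. Among non-coding genes with at least 5 CPM that fell, the 3 with the largest changes were the mitochondrial tRNA genes *MT-TC*, *MT-TL1* and *MT-TY*, with log2 fold changes of -1.26, -0.94 and -0.88. These genes are only 66, 75 and 66 bases long. The mitochondrial share of counts was 5.31% to 6.86% in the NeuDet-D3 libraries and 4.88% to 5.22% in the NeuDet-D4 libraries. Whether their fall went with that share was not tested.

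The 2 day-to-day steps that share no library with this one were counted in the same way. From NeuDet-D1 to NeuDet-D2, 11.2% of genes were higher and 13.2% lower, and from NeuDet-D5 to NeuDet-D6 10.3% and 11.9%. Of the 2732 genes higher on NeuDet-D4, 512 were also higher on NeuDet-D2 than on NeuDet-D1, which is 18.7% of the former and 21.1% of the latter list, and 422 were lower there. Of the 2538 lower genes, 527 were also lower in that step (20.8% and 18.4%) and 353 were higher. Against the last step, 518 of the higher genes were higher again (19% and 23.2%) and 529 of the lower ones lower again (20.8% and 20.5%), while 420 of the higher ones were lower there (15.4%, against 11.9% of all genes) and 208 of the lower ones higher (8.2%, against 10.3%). With the GC trend levelled, 30.2% of the higher genes were also higher in the first step (12.7% of all genes) and 13.9% lower (15%). Of the lower ones, 31.8% were lower there (15%) and 14.8% higher (12.7%). In the last step 24.1% of the higher genes were higher (11.7%) and 16% lower (14.1%). There 26.6% of the lower ones were lower (14.1%) and 10.3% higher (11.7%). *HOXC10* rose through the series to 10.3 CPM on NeuDet-D6 and *HOXA9* to 32.5 CPM, whereas *HOXC8* had its highest mean, 138 ± 1.96 CPM, on NeuDet-D4. *ESRG* went from 114 CPM on NeuDet-D1 to 0.114 CPM on NeuDet-D6. These levels are given as a description, with no test between the days.

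**Figure D5:**
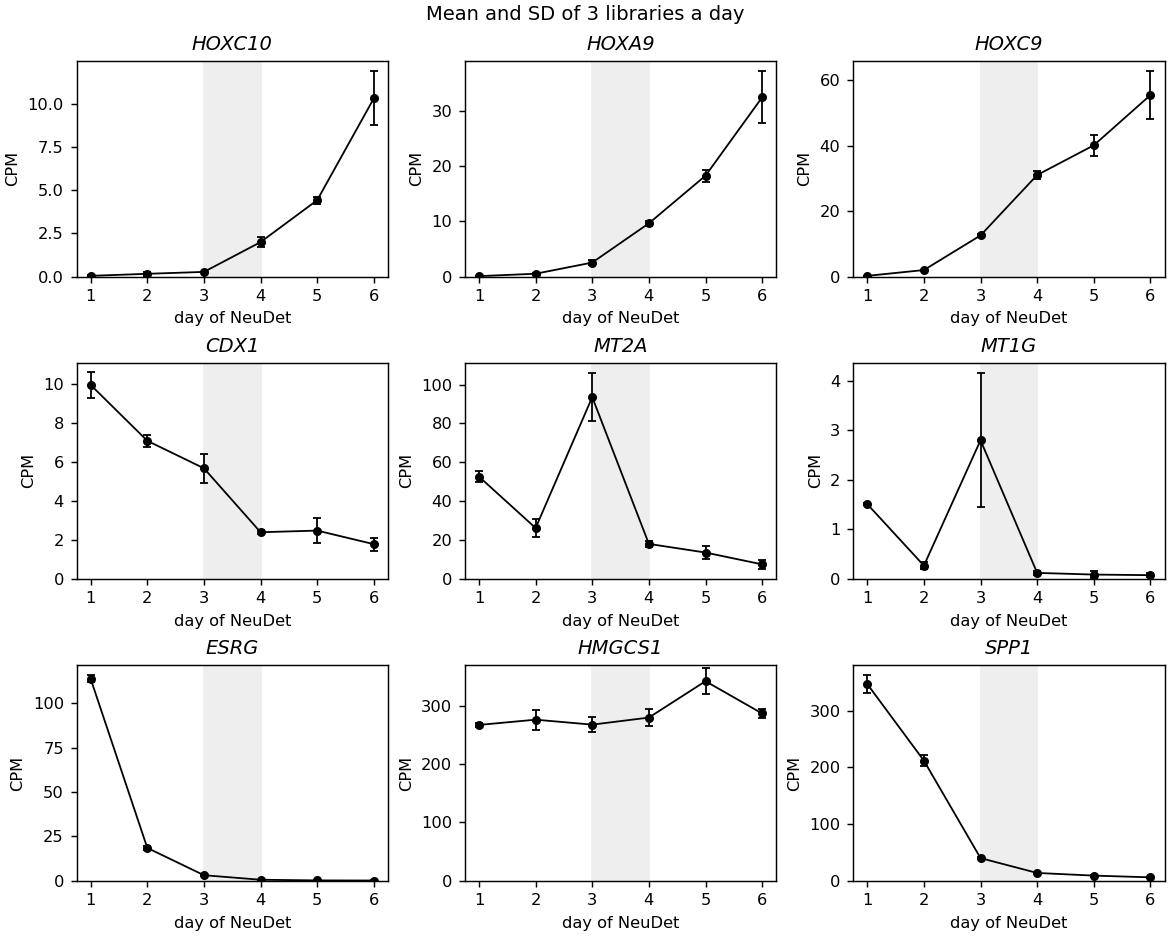
Mean and SD of 3 libraries a day in CPM, on axes from 0, for 9 genes over the 6 NeuDet days, with the step from day 3 to day 4 shaded. *HOXC10*, *HOXA9* and *HOXC9* climb to day 6, *MT2A* and *MT1G* peak on day 3, and *ESRG* and *SPP1* drop from day 1.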

How the data were processed

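RNA-seq libraries of H9 cells were sequenced as paired ends. Per the labels and the study's methods, the authors used HISAT2 2.1.0 for alignment (hg38) and featureCounts 1.5.3 for counting over GENCODE genes. The GENCODE release and strand setting were not given in the sources used here. The deposited values were raw counts of 60603 genes, used as deposited. Of these, 60261 were given a symbol from GENCODE by identifier.

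All 48 libraries of the count table entered 1 model with a coefficient per group (edgeR 4.0.16 in R 4.3.3, filterByExpr, TMM, robust dispersion and quasi-likelihood test), and NeuDet-D4 was contrasted with NeuDet-D3 at a Benjamini-Hochberg adjusted p under 0.05. Tables and figures were made in Python. Scripts were tested on simulated data. Replicates were compared and none were copies. Same-numbered libraries did not all deviate together (correlations 0.22, -0.28 and -0.11 for replicates 1, 2 and 3 over 11667 genes), so numbers were not taken as pairs.

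Depth was 26932870 to 37450844 counts per library here. Genes with a few counts are therefore imprecise.

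For the GC fit, chosen after seeing the data, a lowess curve (span 0.3) of each library's deviation on transcript GC was added as an offset. Members and lists were chosen with earlier results of these data known. Named genes were up to 12 protein-coding genes per direction with the largest called change, at least 5 CPM and no overlap, up to 3 non-coding genes likewise, up to 8 crossing 1 CPM, genes the study names, and in each list up to 6 called members at 1 CPM or more and up to 3 others. The alternatives tried were other scaling, filters, tools, sample sets, replicate blocks and leaving out each library.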

Additional observations from a re-analysis of the deposited data

How the results depend on the processing

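With the counts as deposited, other scaling, sample sets or DESeq2 left 2630 to 3319 genes higher and 2485 to 2952 lower. Without a filter on low counts 2823 were higher and 1580 lower, with 49847 genes tested. Leaving out 1 library at a time gave 2092 to 2383 higher and 1808 to 2125 lower. With the GC offset, chosen after seeing the data, 1518 were higher and 1894 lower, without NeuDet-D4 replicate 2 as well 1184 and 1512, and with a replicate block in the 6 libraries 1613 and 1909. Against a 2-fold change 4 were higher and 11 lower. The replicate block without a GC offset gave 3173 higher and 2704 lower in the 6 libraries, and 2537 and 2375 in the 18 NeuDet libraries. The labels do not say that a number marks a shared culture, and not every library deviated most with its own number.

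Of 356 genes taken by the naming rule 232 were called, and 138 of these kept their direction and call under every alternative that gave them a value, the test against a 2-fold change aside. NeuDet-D4 replicate 2 had 1.22 times the detected genes of its replicates' mean, 1.05 times with at least 10 counts, 1.20 times at 1 total and 1.09 times for protein-coding genes, and 1608 genes with at least 3 counts in it and none in its 2 replicates became 60 with at least 10 counts. Among named genes called with the counts as deposited or under the alternative, with the GC offset, with it and without NeuDet-D4 replicate 2, and with it and the block, the log2 fold change turned sign for CDT1 (-0.057, -0.066 and -0.037), UQCRC1 (-0.036, -0.034 and -0.024), UQCRC2 (0.021, 0.027 and 0.017), COL4A2 (-0.048, -0.030 and -0.035) and COL18A1 (-0.22, -0.19 and -0.19). It also turned for IER2 (-0.047), MEIS3 (-0.017) and SLC39A10 (0.0074) under the second of these and for SESN2, which was called under the third alone (-0.17). With the GC offset alone, 30 named genes called in neither fit, SESN2 among them, had the other sign. The cause was not tested. Depth limits genes under a few counts, where 1 library can decide a call.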
